A study of Mus musculus with 4 samples.

Results

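The EGF family ligands and their ErbB receptors were followed as 9 genes taken by symbol from the gene count table: the ligand genes Areg, Ereg, Epgn, Tgfa, Hbegf and Btc, and the receptor genes Egfr, Erbb2 and Erbb3. Of these, 8 were found among the 14979 genes of the table (5 ligands and 3 receptors), and all 8 had enough tags to be tested. Epgn was not analysed here. The data are CAGE tag counts (cap analysis of gene expression, which sequences the capped 5′ ends of RNA) from colon tumours of the AOM/DSS mouse model, in which the carcinogen azoxymethane is combined with dextran sulfate sodium, an agent that inflames the colon. Tumours came from 2 mice given an anti-inflammatory antibody against MAdCAM-1, an adhesion molecule of gut venules, and from 2 mice given control IgG, with 1 library per mouse. They are named here IgG 1, IgG 2, MAdCAM1 1 and MAdCAM1 2. All 4 mice carried tumours of the same AOM/DSS model, so that no library shows untreated colon. Strain, age, antibody dose and treatment time are not given in the sources used here.

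ErbB receptors are tyrosine kinases at the cell surface that work as pairs. Their EGF-like ligands are made as membrane-anchored precursors and are cut free by metalloproteases, after which Egfr signals through Ras, Raf and ERK and through PI3 kinase. In the intestine this pathway drives epithelial proliferation and repair after injury, and amphiregulin (Areg) and epiregulin (Ereg) are the ligands most often studied in colon tumours.

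Levels are given as CPM (tag counts divided by library size, with TMM factors), and fold changes as log2 of MAdCAM1 over IgG. The libraries held 14850923 to 16891234 tags, and 1 tag equals 0.0569 to 0.07 CPM. CAGE gives tags only from 5′ ends, so no scaling for transcript length was applied. Levels of single genes are compared between libraries for 1 gene at a time. Sums, shares and tag ratios set several genes together within a library and are then compared between libraries. Values given 4 at a time follow the order in which the libraries were named above. All 8 epithelial markers were tested, none was at 0, and they summed to 5654, 4934, 8735 and 7470 CPM. Of these, 7 were above both IgG libraries in both MAdCAM1 libraries, where 19.7% of all genes tested were. By edgeR's quasi-likelihood test, given below, 0 of the 8 were called (smallest adjusted p = 0.665). The intestinal factors Cdx1 (22.5 to 99.7 CPM) and Cdx2 (3.71 to 16.9 CPM) were present in every library of this colon series. Smooth muscle markers (6 of 7 tested) summed to 1675, 90.1, 106 and 1894 CPM, fibroblast markers (8 of 8) to 422.5, 1229, 446 and 1610.5 CPM, and macrophage markers (5 of 8) to 142, 484, 128 and 493 CPM. For these 3 lists the groups overlapped. IgG 1 and IgG 2 differed from each other, and so did MAdCAM1 1 and MAdCAM1 2. In bulk tumour RNA, fewer cells of a type and less RNA per cell cannot be told apart.

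Areg, Ereg, Epgn and Btc lie in a cluster on chromosome 5 (all coordinates are on GRCm39). The 200 bases before the annotated start of Areg, Ereg and Btc are shown with those of Tgfa, which lies on chromosome 6, because CAGE tags are counted at gene starts and because IgG 2 held the lowest Areg and the highest Ereg level. The sequences are from GRCm39, read 5′ to 3′ on the gene's strand and ending at the base before the start of the canonical GENCODE M39 transcript. Capitals mark matches to any of 5 motifs.
Areg: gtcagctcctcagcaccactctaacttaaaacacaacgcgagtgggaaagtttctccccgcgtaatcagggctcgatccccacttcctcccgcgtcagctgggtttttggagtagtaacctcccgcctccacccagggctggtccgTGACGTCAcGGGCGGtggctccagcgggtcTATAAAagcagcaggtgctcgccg
Ereg: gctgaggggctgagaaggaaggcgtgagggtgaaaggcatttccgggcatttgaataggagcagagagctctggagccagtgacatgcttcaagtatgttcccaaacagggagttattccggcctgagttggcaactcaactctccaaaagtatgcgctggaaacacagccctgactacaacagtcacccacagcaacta
Btc: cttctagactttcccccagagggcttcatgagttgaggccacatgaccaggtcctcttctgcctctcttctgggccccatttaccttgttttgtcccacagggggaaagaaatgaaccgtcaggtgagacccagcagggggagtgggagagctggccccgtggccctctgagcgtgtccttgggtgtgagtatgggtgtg
Tgfa: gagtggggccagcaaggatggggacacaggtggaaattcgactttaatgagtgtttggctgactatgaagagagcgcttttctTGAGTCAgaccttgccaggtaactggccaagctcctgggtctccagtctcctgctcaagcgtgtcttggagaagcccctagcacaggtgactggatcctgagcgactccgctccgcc
The windows span chr5:91287251-91287450 on the plus strand (Areg), chr5:91221957-91222156 on the plus strand (Ereg), chr5:91550884-91551083 on the minus strand (Btc) and chr6:86171841-86172040 on the plus strand (Tgfa). The cyclic AMP response element (CRE) was searched as TGACGTCA on both strands. The AP-1 motif was searched as TGANTCA on both strands. For TEAD factors the letters were GGAATG, also on both strands. For SP1 they were GGGCGG on both strands. The TATA box was searched as TATAAA on the gene's strand only. No 2 matches overlapped in these 4 windows.

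The Areg window held 3 matches, a CRE at position −54, an SP1 match at −45 and a TATA box at −24, with positions counted from the annotated start to the match's leftmost base. Over 14921 windows of the same length for genes of the table, CRE letters were found in 1.83%, TATA letters in 4.3% and SP1 letters in 44.2%. The Ereg and Btc windows held none of the 5 motifs. The Tgfa window held an AP-1 match at −117, and AP-1 letters were found in 3.86% of all windows. TEAD letters, found in 8.81% of all windows, were in none of the 4. The windows also differed in CpG content, with an observed over expected ratio of 0.84 for Areg, 0.3 for Ereg, 0.18 for Btc and 0.39 for Tgfa, against a median of 0.66 over all windows. These are matches of letters only, and the deposited table does not place its tags within a promoter. Areg and Ereg have 1 annotated start each, but Btc has 4 and Tgfa 6, and only the canonical start was searched.

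No ligand or receptor passed the test between the groups. By edgeR's quasi-likelihood test with Benjamini-Hochberg adjustment over 14331 genes, 0 of the 8 members were called, with adjusted p-values from 0.76 (Erbb3) to 0.978 (Btc). Over all genes that test called 0 in either direction, which is 0.0% higher and 0.0% lower. At an unadjusted p under 0.05 it had 730 genes higher (5.09%) and 261 lower (1.82%), of which 0 were members. The exact test of edgeR (1.06% of genes higher and 0.0628% lower) and DESeq2 (1.53% higher and 0.14% lower) also called 0 of the 8, as did limma-voom, which called 0.0% in either direction. The groups did not overlap for 2 members. Erbb3 was above both IgG libraries in both MAdCAM1 libraries, where 19.7% of all genes tested were, and Tgfa was below both, where 18.7% were. With 1 of 8 members in each direction, the share was no larger than that of all genes. Scaling by library size alone left the same 2 members on those sides, although all genes then split into 13.6% higher and 28.6% lower.

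Areg (chromosome 5, 91287451 to 91296291) encodes amphiregulin, a low-affinity ligand of Egfr. Its level was 146 and 39.5 CPM in the IgG mice, and 139 and 76.0 CPM in the antibody-treated mice. The IgG libraries were thus the highest and the lowest of the 4, and both MAdCAM1 values lay between them. The group means were 92.7 ± 75.2 CPM for IgG and 107 ± 44.3 CPM for MAdCAM1 (SD, n = 2 each), which gives a log2 fold change of 0.21 (SE 0.71; edgeR adjusted p = 0.969). The direction turned without IgG 2 (−0.45) and without MAdCAM1 1 (−0.29).

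Ereg (chromosome 5, 91222157 to 91241505) encodes epiregulin, which binds Egfr and the receptor Erbb4. Its level was 5.58 and 32.8 CPM in the IgG mice, against 9.24 and 4.34 CPM after anti-MAdCAM-1, from 98, 531, 132 and 67 tags. IgG 2 was far above the other libraries, and IgG 1 lay between the MAdCAM1 values. The log2 fold change of −1.5 (SE 0.96; edgeR adjusted p = 0.818) was the largest of any member and rested on IgG 2. Without that library it was 0.27, with an adjusted p of 0.977 by the same test.

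Areg and Ereg start 65.3 kb apart on the same strand, yet IgG 2 held the lowest Areg value and the highest Ereg value. Their tag ratio, which does not depend on library scaling, was 26.2 Areg tags per Ereg tag in IgG 1 and 1.2 in IgG 2. It was 15.0 and 17.5 in MAdCAM1 1 and MAdCAM1 2, so that the MAdCAM1 libraries lay between the IgG libraries.

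**Figure D1:**
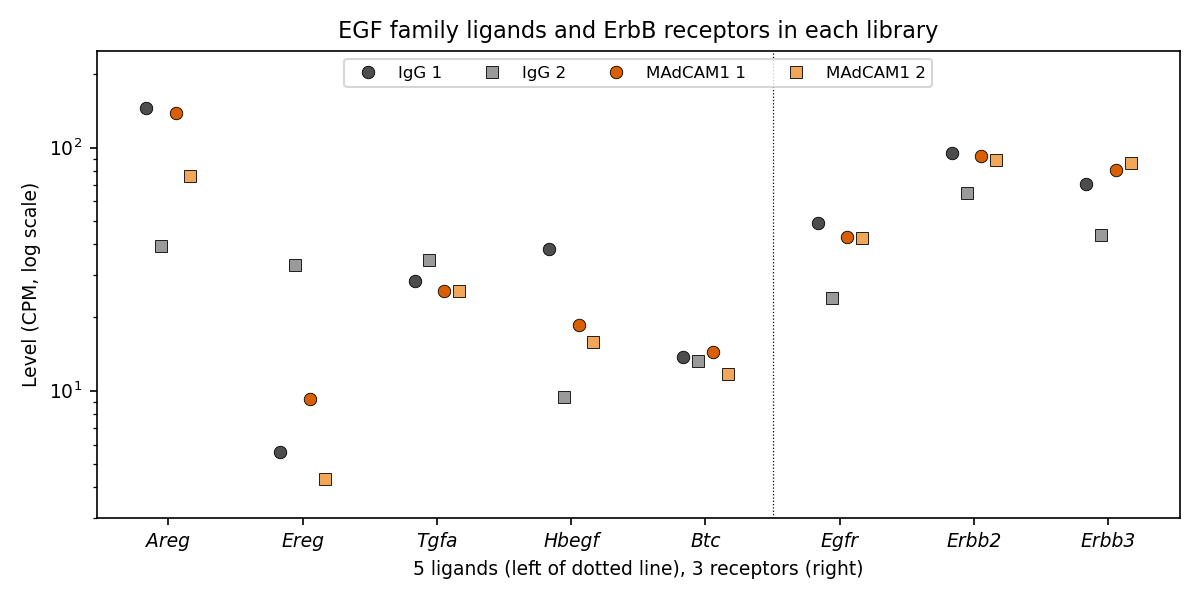
Level in CPM on a log axis of the 5 ligand and 3 receptor genes, with 1 point per library (grey, IgG; orange, MAdCAM1; circles, replicate 1; squares, replicate 2). IgG 2 is the lowest library for Areg, Hbegf, Egfr, Erbb2 and Erbb3 and the highest for Ereg and Tgfa.

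Tgfa (chromosome 6, 86172041 to 86252728) encodes transforming growth factor alpha, a high-affinity ligand of Egfr. Under IgG it reached 28.3 and 34.4 CPM, and under anti-MAdCAM-1 25.8 and 25.6 CPM. Both MAdCAM1 values lay below both IgG values, by a log2 fold change of −0.29 (SE 0.18; edgeR adjusted p = 0.804). The MAdCAM1 mean was 25.7 ± 0.136 CPM and the IgG mean 31.4 ± 4.36 CPM (SD, n = 2 each). Leaving out each library in turn kept the direction, at −0.15 without IgG 2 and −0.44 without IgG 1.

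Hbegf (chromosome 18, 36637980 to 36649677) encodes heparin-binding EGF-like growth factor, which binds Egfr and Erbb4. Under IgG it reached 38.4 and 9.40 CPM, and under anti-MAdCAM-1 18.7 and 15.9 CPM. The IgG values again enclosed both MAdCAM1 values, and the log2 fold change was −0.46 (SE 0.70; edgeR adjusted p = 0.93). It was 0.86 without IgG 1, the library with the highest value, and −1.15 without IgG 2.

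Btc (chromosome 5, 91505120 to 91550883) encodes betacellulin, another ligand of Egfr and Erbb4. It had the narrowest range of the ligands, at 13.8 and 13.2 CPM under IgG against 14.4 and 11.7 CPM under anti-MAdCAM-1. The log2 fold change was −0.05 (SE 0.22; edgeR adjusted p = 0.978), and it was 0.09 without MAdCAM1 2. Btc starts 263 kb from Areg, on the opposite strand, and did not share the spread of Areg or Ereg between the IgG libraries.

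The genes beside the cluster had patterns of their own. Parm1, beyond Btc, had 45.0 and 32.5 CPM under IgG against 67.2 and 72.5 CPM under anti-MAdCAM-1, with both MAdCAM1 values above both IgG values (log2 fold change 0.85, SE 0.21; edgeR adjusted p = 0.671). The next listed gene, Rchy1, stood at 49.9, 56.5, 51.0 and 63.2 CPM in library order. On the other side, Mthfd2l stood at 19.1, 21.8, 26.0 and 21.6 CPM, and the neutrophil chemokine gene Cxcl2 at 74.3, 85.2, 77.1 and 26.1 CPM. Parm1 was lowest in IgG 2, as Areg was. Cxcl2 was highest there, as Ereg was, but by a narrow margin, and its low library was MAdCAM1 2.

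**Figure D2:**
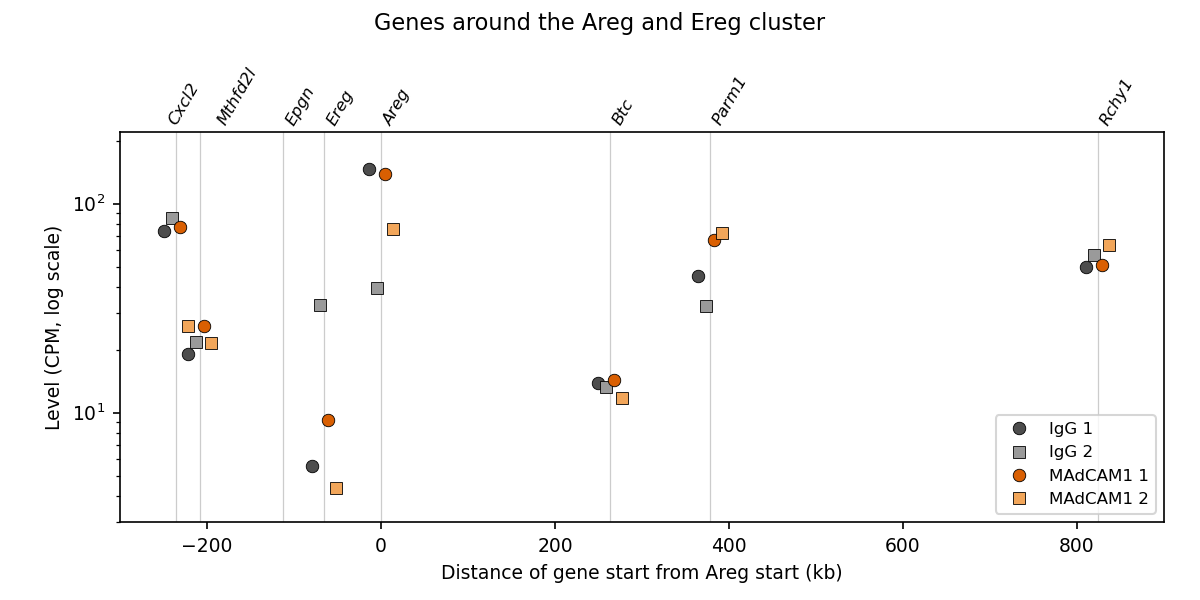
Level in CPM on a log axis, by library, of the listed genes around the ligand cluster, placed by the distance of each gene's start from the start of Areg in kb (points of 1 gene are spread sideways so that they can be seen; Epgn has no points). Of the 4 libraries, IgG 2 is the lowest for Areg and the highest for Ereg, 65.3 kb apart, and Btc is nearly level.

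The make-up of the ligand tags differed more between the IgG libraries than between the groups. Areg made up 62.9% of the tags of the 5 ligands in IgG 1 (95% Wilson interval 61.4 to 64.4) and 30.5% in IgG 2 (28.6 to 32.5). It made up 67.1% in MAdCAM1 1 (65.3 to 68.7) and 56.9% in MAdCAM1 2 (54.8 to 59.1). Ereg made up 2.4%, 25.4%, 4.47% and 3.25% in library order, and Tgfa 12.2%, 26.6%, 12.5% and 19.2%. Hbegf made up 16.5%, 7.27%, 9.04% and 11.9%, and Btc 5.96%, 10.2%, 6.98% and 8.73%. IgG 2 therefore held the largest share of Ereg, Tgfa and Btc and the smallest of Areg and Hbegf. These intervals are computed within 1 library, so they cover counting error only and not the spread between mice. They take each tag as a separate count, although the tags carry no stated molecular identifiers.

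The summed level of the 5 ligands was 232 and 129 CPM under IgG against 207 and 134 CPM under anti-MAdCAM-1, so that the groups overlapped. Without Areg, the other 4 ligands summed to 86.1 and 89.9 CPM under IgG against 68.1 and 57.5 CPM under anti-MAdCAM-1. That sum was lower in both MAdCAM1 libraries, by 0.49 on the log2 scale with a pooled SD within groups of 0.13. It was formed after the values were seen, and its close IgG values hide opposite differences. Hbegf was at 38.4 CPM in IgG 1 and 9.40 CPM in IgG 2, whereas Ereg was at 5.58 and 32.8 CPM. These offset each other in the sum, so that the small SD does not show steady ligand levels. No p is given for a score over chosen genes.

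**Figure D3:**
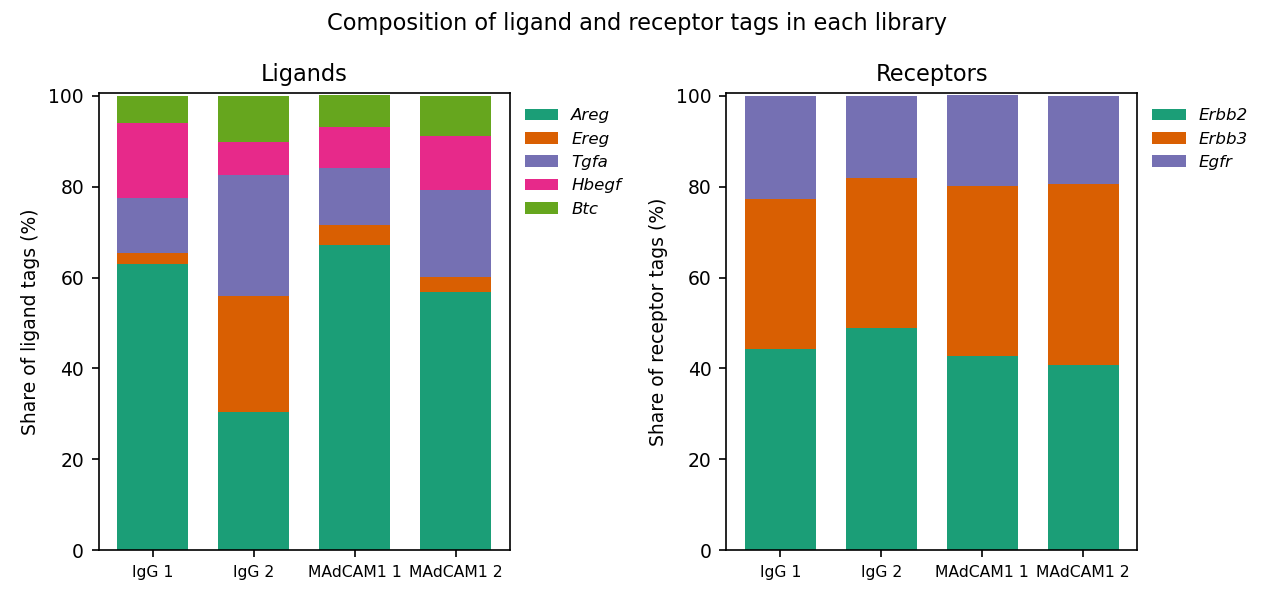
Share in percent of the tags of the 5 ligands (left) and of the 3 receptors (right) held by each gene, with 1 stacked bar per library. Areg is at 30.5% and Ereg at 25.4% of ligand tags in IgG 2, and among the receptors Erbb3 runs from 32.9% in both IgG libraries to 39.7% in MAdCAM1 2.

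The receptors varied less than Areg, Ereg and Hbegf, and the MAdCAM1 libraries were close to each other for all 3. Egfr (chromosome 11, 16702198 to 16868158), the receptor of all 5 ligands, had 48.9 and 24.0 CPM under IgG against 43.0 and 42.3 CPM under anti-MAdCAM-1. Both MAdCAM1 values lay between the IgG values, with a log2 fold change of 0.23 (SE 0.38; edgeR adjusted p = 0.937) that was −0.20 without IgG 2. The antisense RNA genes Egfros and Eldr overlap Egfr on the opposite strand and are counted apart, at 0.98 to 1.79 CPM and 7.79 to 11.1 CPM. Whether the gene counts used strand is not stated in the sources used here.

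Erbb2 (chromosome 11, 98303203 to 98328542), the partner receptor with no known ligand of its own, had 95.2 and 65.1 CPM under IgG against 92.5 and 88.5 CPM under anti-MAdCAM-1. The IgG values enclosed the MAdCAM1 values here too (log2 fold change 0.17, SE 0.22; edgeR adjusted p = 0.912), and without IgG 2 the value was −0.08. Erbb2 overlaps Mien1 on the opposite strand. Mien1 stood at 105, 128, 129 and 123 CPM and was not lowest in IgG 2.

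Erbb3 (chromosome 10, 128403392 to 128425811) encodes the neuregulin receptor with an impaired kinase, which signals as a partner of Erbb2 or Egfr. It had 70.7 and 43.7 CPM under IgG against 80.9 and 86.1 CPM under anti-MAdCAM-1, the only receptor whose groups did not overlap. The mean was 57.2 ± 19.1 CPM in IgG and 83.5 ± 3.66 CPM in MAdCAM1 (SD, n = 2 each), which gives a log2 fold change of 0.54 (SE 0.27; edgeR adjusted p = 0.76). The value was 0.92 without IgG 1 and 0.23 without IgG 2. Over the 3 receptors the summed level was 215 and 133 CPM under IgG against 216 and 217 CPM under anti-MAdCAM-1. The log2 fold of the sums, 0.36, was 0.01 without IgG 2.

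The shares of the receptors moved over narrower ranges than those of Areg and Ereg. Erbb2 held 44.3%, 49.0%, 42.8% and 40.8% of receptor tags in library order, Egfr 22.8%, 18.1%, 19.9% and 19.5%, and Erbb3 32.9%, 32.9%, 37.4% and 39.7%. The groups did not overlap for the Erbb3 share, which lay higher under anti-MAdCAM-1, nor for the Erbb2 share, which lay lower. Receptor shares of a library add up to a whole, so these are not separate results, and neither is the ratio of Erbb3 to Erbb2. With 2 mice a group these shares were not tested, and Wilson intervals on them would cover counting error and not the spread between mice. The tag ratio of Erbb3 to Erbb2 was 0.742 and 0.671 in IgG and 0.874 and 0.973 in MAdCAM1. Sums of 5 ligands over sums of 3 receptors gave ratios of 1.08, 0.974, 0.956 and 0.616.

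Because most epithelial markers lay higher under anti-MAdCAM-1, the members were also set against them. Per 1000 tags of the 8 epithelial markers, Erbb3 had 12.5 and 8.86 tags in IgG and 9.26 and 11.5 in MAdCAM1, so that the groups overlapped on this scale. Tgfa had 5.0 and 6.98 against 2.95 and 3.42, Btc 2.45 and 2.68 against 1.65 and 1.56, and Erbb2 16.8 and 13.2 against 10.6 and 11.8. On this scale the MAdCAM1 values lay below both IgG values for 3 of 8 members, above for 0, and overlapped for 5. Of all genes tested, 70.4% lay below and 3.54% above, and the share of members below was smaller than that. The markers include Epcam, Krt8 and Cdx1, which themselves did not overlap between the groups, and their part in the member values was not tested further.

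The spread within IgG was measured directly. The absolute log2 difference between IgG 2 and IgG 1 had a median of 0.295 over all genes tested. Ereg was higher in IgG 2 by 2.56 on that scale, and 98.0% of genes differed by less. Hbegf was at −2.03 (96.5% of genes differed by less), Areg at −1.89 (95.9%) and Egfr at −1.03 (88.0%). Erbb3 was at −0.69, Erbb2 at −0.55, Tgfa at 0.28 and Btc at −0.06. Among the 8 members, 5 were lowest in IgG 2, where 30.1% of all genes were, and 2 were highest there, where 29.3% were. IgG 2 and MAdCAM1 1 both had low smooth muscle marker sums, and IgG 2 and MAdCAM1 2 both had high fibroblast and macrophage sums. Absorptive colonocyte markers summed to 389, 226, 1128 and 716 CPM, and all 7 were lowest in IgG 2, as the 3 receptors were. The part of these marker levels in the IgG spread was not tested.

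The genes nearest to Ereg in pattern were also high in IgG 2, which follows from how they were picked. Likeness was the root mean square difference of log2 CPM, centred on each gene's mean over the 4 libraries, among 13983 genes of mean CPM at least 1. Ptn, which encodes the growth factor pleiotrophin, was nearest at 0.0611, with 53.3, 340.4, 87.3 and 41.9 CPM in library order. The homeobox genes Dlx3 (7.63, 38.3, 9.87 and 5.57 CPM) and Msx1 (3.41, 14.8, 5.53 and 2.20 CPM) followed at 0.132 and 0.183. For Erbb3 the nearest were Tspan17 (0.0237), Fahd1 (0.0244) and Cd55 (0.0274). Cd55, a brake on complement, stood at 28.1, 17.7, 32.6 and 36.1 CPM. With 4 libraries such nearness describes these samples only.

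**Figure D4:**
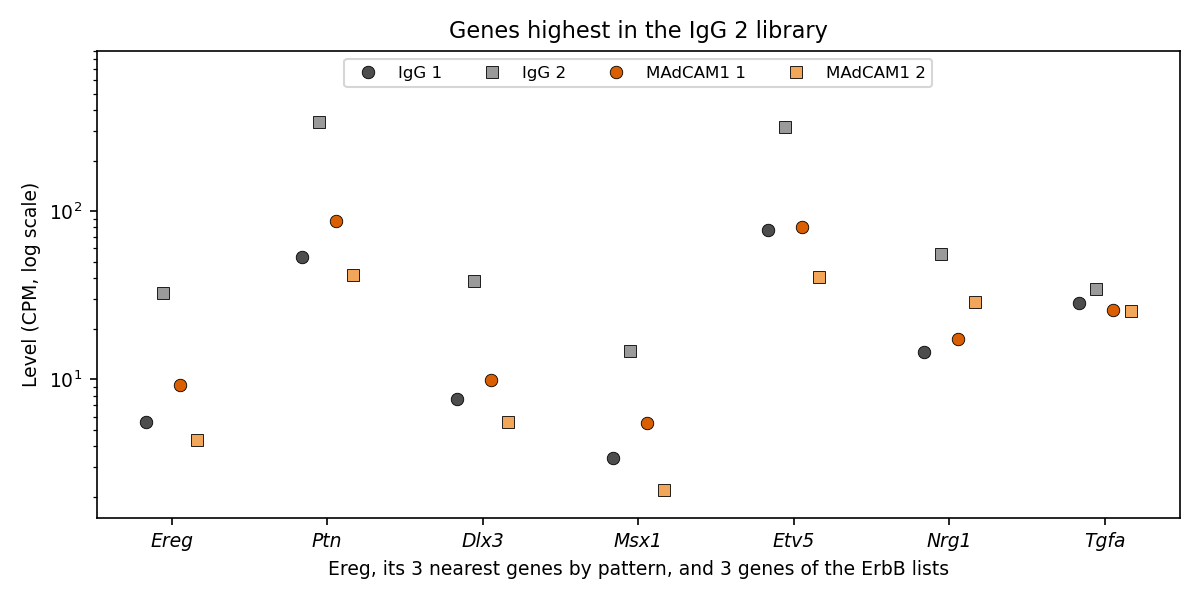
Level in CPM on a log axis, by library, of Ereg, of Ptn, Dlx3 and Msx1, which are nearest to it in pattern, and of Etv5, Nrg1 and Tgfa. All 7 genes are highest in IgG 2, with Ptn at 340.4 CPM and Etv5 at 316 CPM there. They were picked to show that pattern, and 29.3% of all genes tested are highest in IgG 2.

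Other genes of the family were sparse apart from Nrg1. Of 6 listed (Egf, Nrg1, Nrg2, Nrg3, Nrg4 and Erbb4), 2 were tested, and 0 were called. Nrg1, a neuregulin that binds Erbb3, had 14.5 and 56.0 CPM under IgG against 17.4 and 28.7 CPM under anti-MAdCAM-1. Like Ereg it was highest in IgG 2, and the log2 fold change was −0.61 (SE 0.72; edgeR adjusted p = 0.90). Nrg4, a neuregulin that binds Erbb4, rested on 8, 22, 24 and 18 tags in library order. Egf had 4, 6, 7 and 4 tags and was too low to be tested. Nrg2, Nrg3 and Erbb4 were not analysed here.

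Genes that release ligands from the membrane were mixed. Of 12 listed proteases, rhomboid proteins and helpers, 11 were tested and 0 were called. Both MAdCAM1 libraries were above both IgG libraries for 3 (27.3%) and below for 3 (27.3%), against 19.7% and 18.7% of all genes. The median log2 fold change was −0.05, against 0.0 over all genes tested. Scaled by library size alone, which moved the median of all genes to −0.10 and left 13.6% of all genes higher and 28.6% lower without overlap, the counts were 1 and 6. Adam17, the main sheddase of Areg and Tgfa precursors, overlapped at 47.0, 45.4, 38.2 and 47.3 CPM. Adam10, which sheds Btc precursors, stood at 509.7 and 512 against 428 and 374 CPM (log2 fold change −0.35, SE 0.15; edgeR adjusted p = 0.755). Adam15 had the smallest p of the list, at 39.8 and 29.6 against 49.4 and 59.8 CPM (0.65, SE 0.22; edgeR adjusted p = 0.691). The log2 fold change was −0.63 for Adam12 and −0.40 for the proprotein convertase gene Furin, both lower in both MAdCAM1 libraries.

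Brakes on the receptors and on Ras were also mixed. Of 25 genes, all tested, 0 were called, 4 were above both IgG libraries and 6 below, and the median log2 fold change was −0.07. Scaled by library size alone the counts were 3 (12.0%) and 8 (32.0%), against 13.6% of all genes higher and 28.6% lower. Lrig1, which drives ErbB receptors to degradation and marks intestinal stem cells, had 36.3 and 13.5 CPM under IgG against 58.3 and 42.5 CPM under anti-MAdCAM-1 (log2 fold change 1.02, SE 0.53; edgeR adjusted p = 0.763). Its relative Lrig3 stood at 15.5 and 5.44 against 22.2 and 25.3 CPM (1.18, SE 0.55; edgeR adjusted p = 0.76). Like the 3 receptors, Lrig1 and Lrig3 were lowest in IgG 2. Of the 25 brakes, 8 were lowest in IgG 2 and 9 were highest there, where 30.1% and 29.3% of all genes were. Spred1 and Rasa1, which restrain Ras, were lower in both MAdCAM1 libraries at −0.45 and −0.32. Errfi1, a cytoplasmic inhibitor of Egfr, overlapped at 99.1, 98.3, 117 and 76.9 CPM.

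Signal transducers were mixed too, and their split depended on the scaling. Of 28 genes, all tested, 0 were called, and the median was −0.07. In the main scaling 4 (14.3%) were above both IgG libraries and 6 (21.4%) below, against 19.7% and 18.7% of all genes. Scaled by library size alone the counts were 2 (7.14%) and 13 (46.4%), against 13.6% of all genes higher and 28.6% lower. Mapk3, which encodes the kinase ERK1, had 199 and 216 CPM under IgG against 305 and 292 CPM under anti-MAdCAM-1 (log2 fold change 0.52, SE 0.14; edgeR adjusted p = 0.691). The docking protein gene Gab1 (−0.50) and the PI3 kinase subunit gene Pik3r2 (−0.46) were lower in both MAdCAM1 libraries, whereas Eps8, an Egfr substrate, lay above both IgG libraries (0.31).

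Genes commonly read as ERK output had a median log2 fold change of −0.31 over 10 members, all tested, with 0 called. Of these, 3 (30.0%) were below both IgG libraries and 1 (10.0%) was above, against 18.7% and 19.7% of all genes. Scaled by library size alone the counts were 4 (40.0%) and 1 (10.0%), against 28.6% and 13.6% of all genes. Dusp4, a phosphatase that switches ERK off, had 43.4 and 50.3 CPM under IgG against 32.1 and 22.4 CPM under anti-MAdCAM-1 (log2 fold change −0.78, SE 0.24; edgeR adjusted p = 0.691). Phlda1 (−0.57) and Ccnd1, which encodes cyclin D1 (−0.31), were also below both. Spry2, a feedback inhibitor of receptor signalling, was above both, at 51.5 and 47.8 against 58.3 and 63.5 CPM. Dusp4, Dusp6, Spry2 and Spry4 stand in the lists of brakes and of ERK output alike.

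Etv5, an ETS transcription factor induced by ERK, had the largest difference of the ERK output list. It had 77.7 and 316 CPM under IgG against 80.9 and 40.8 CPM under anti-MAdCAM-1, a log2 fold change of −1.69 (SE 0.79; edgeR adjusted p = 0.76). IgG 1 lay between the MAdCAM1 values and IgG 2 far above, as for Ereg. Dusp6, another ERK phosphatase, did not go with it, at 82.8, 56.3, 68.5 and 56.3 CPM in library order. Of the 10 genes of the ERK output list, 4 were highest in IgG 2, Etv5 among them, and 3 were lowest there. Over all genes tested, 29.3% were highest and 30.1% lowest in IgG 2.

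**Figure D5:**
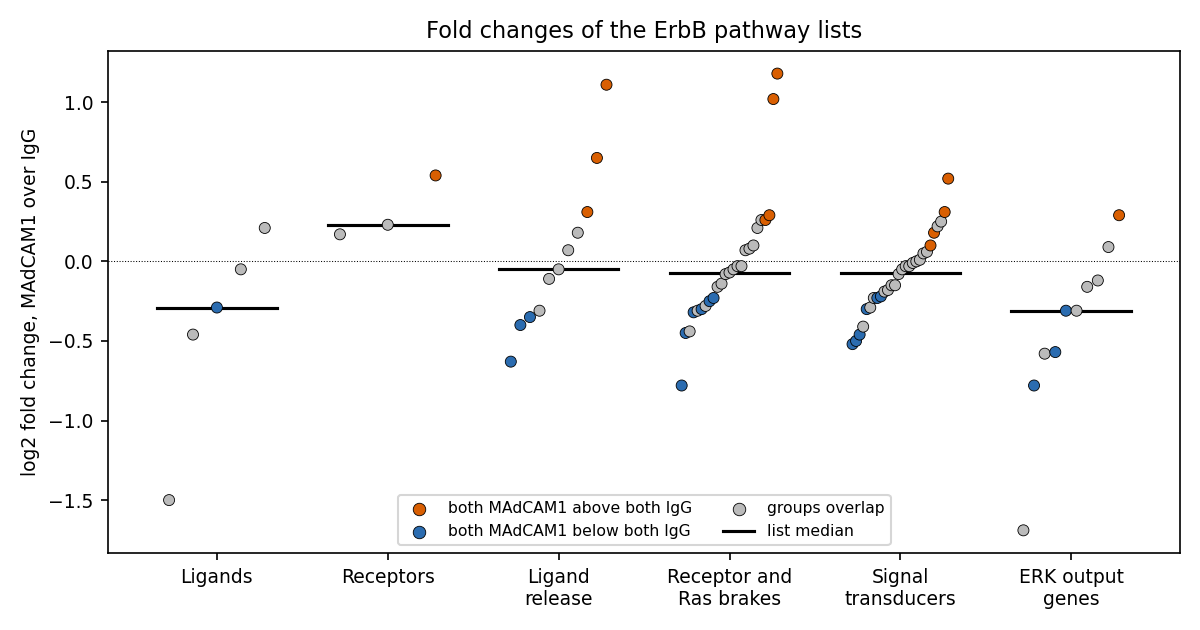
Log2 fold change of MAdCAM1 over IgG for each tested gene of the ligands, the receptors and 4 pathway lists, with 1 point per gene (orange, both MAdCAM1 libraries above both IgG libraries; blue, both below; grey, overlapping) and a bar at the list median. Medians lie between −0.31 for ERK output genes and 0.23 for receptors, and no gene shown passed the test.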

How the data were processed

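CAGE libraries of 4 tumours were analysed. Per the labels' protocols, RNA with an integrity number above 7.0 was reverse transcribed from random primers, cap-trapped and read as 75 nt single ends. Mapping to GRCm39 used BWA 0.7.17 and HISAT2 2.0.5, and clustering used RECLU, per the labels. Clusters under 0.1 CPM, over 200 bp or poorly reproduced between replicates were discarded by the authors. The step from clusters to genes is not given in the sources used here. The deposited values are raw tag counts per gene.

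From these, filterByExpr by group kept 14331 of 14979 genes. TMM scaling (factors 0.962 to 1.04) and the robust quasi-likelihood test of edgeR 4.0.16 (R 4.3.3) compared 2 MAdCAM1 with 2 IgG libraries without a block, adjusted over all genes tested (threshold 0.05). The SE is the log2 fold change over the root of F. Replicate numbers belong to different mice. P-values measure the spread between 2 mice a group, estimated partly from other genes.

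The members and lists were chosen with earlier results of these data known. All members are named, as are the 4 genes of smallest p per pathway list, the 3 genes most like Ereg and Erbb3 (the ligand and receptor with the largest change) and the cluster's neighbours. Adam17, Lrig1, Errfi1, Ccnd1, Dusp6, Egf and the summed ligands without Areg were chosen after their values were seen. Sensitivity was assessed with 13 alternatives, including DESeq2 1.42.0 and limma-voom (limma 3.58.1), plus 1 added after seeing the data. The tests were also run on simulated counts in which 200 genes were changed. The outcome of that run is not given here, and nothing on the power of the tests is drawn from it. Coordinates are from GENCODE M39, which matched 14923 table genes. No member shares its values with another gene, whereas 885 genes with at least 20 tags do.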

Additional observations from a re-analysis of the deposited data

How the results depend on the processing

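Scaling by RLE, upper quartile or library size, both filters, the replicate block and the other tests turned no member's direction and called no member. Only leaving out a library turned a direction. Leave-one-out log2 fold changes ran from −0.45 (without IgG 2) to 1.42 (without IgG 1) for Areg, which was also at −0.29 without MAdCAM1 1. They ran from −2.29 (without IgG 1) to 0.27 (without IgG 2) for Ereg, from −1.15 (without IgG 2) to 0.86 (without IgG 1) for Hbegf and from −0.22 (without MAdCAM1 1) to 0.09 (without MAdCAM1 2) for Btc. Egfr ran from −0.20 and Erbb2 from −0.08 (without IgG 2) to 0.81 and 0.46 (without IgG 1). Tgfa and Erbb3 kept their direction in all 13 alternatives. Without 1 library, members free of overlap numbered 1 to 5 higher and 1 to 5 lower, since fewer values then need to part. They were 5 higher without IgG 1 (35.1% of all genes tested parted that way) and 2 without MAdCAM1 2 (33.9%). Lower were 2 without IgG 1 (38.7% of all genes), 5 without IgG 2 (34.0%) and 3 without MAdCAM1 1 (36.0%).

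Over all genes, edgeR's quasi-likelihood test called 0, DESeq2 called 219 higher and 20 lower, and the exact test 152 higher and 9 lower. The replicate block called 0 in either direction (log2 fold change −1.10 for Ereg and 0.58 for Erbb3). Deviations of same-numbered libraries correlated at −0.135 across genes, and with the numbers crossed, a block tried after seeing the data, 0 genes were called either way. Scaled by library size alone, the median was −0.15 for ligand release, −0.17 for brakes and −0.16 for transducers. Leave-one-out medians ran from −0.16 to 0.03 for ligand release, −0.18 to −0.04 for brakes and −0.49 to −0.14 for ERK output genes. The log2 fold of summed receptors ran from 0.01 (without IgG 2) to 0.69. With 2 mice a group, an exact permutation test cannot go below p = 0.333, and members with few tags, such as Ereg at 67, carry the largest counting error.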
